A study of Mus musculus with 14 samples.

Results

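The genes described here are 10 genes of antigen presentation by major histocompatibility complex (MHC) class II: H2-Aa, H2-Ab1, H2-Eb1, H2-DMa, H2-DMb1, Cd74, Ctss, Ifi30, Ciita and Cd86. They were picked by name, with earlier results of these data known. Each was found as 1 of the 23930 RefSeq transcript targets counted in every library. All 10 had enough reads to enter the tests, which covered 14168 targets. The libraries were made from sinusoidal endothelial cells of the liver (LSECs), which line its capillaries with a perforated layer, isolated by flow cytometry from female wild-type C57BL/6J mice. The gate kept cells dim for CD45, the pan-leukocyte surface protein encoded by Ptprc, and high for STAB2 and CD146. The aged mice were 10 to 11 months old and gave 7 libraries, and the young mice were 8 to 10 weeks old and gave 7. Experiment 1 held 3 libraries of each age, and experiment 2 held 4. No mutation or treatment is given for either age, and library names below give the age, the experiment and the replicate, so aged 1.3 is the third aged replicate of the first experiment. Whether every library is a separate mouse is not stated, so p-values reflect the spread among these libraries, part of which may be technical.

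MHC class II molecules carry fragments of proteins taken up by endocytosis to the cell surface, where CD4 T cells read them. An alpha and a beta chain assemble with the invariant chain, which blocks the peptide groove until lysosomal proteases remove it and the DM molecule exchanges the remaining fragment for a peptide. Dendritic cells, B cells and macrophages are the main class II presenting cells, and their class II genes are switched on together by the coactivator CIITA. LSECs are also known to take up antigen avidly and to present it, with low surface class II compared with dendritic cells.

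CIITA does not bind DNA itself and acts through proteins assembled on a conserved upstream module, in which an X box and a Y box lie at a fixed distance on class II promoters. The Y box core is ATTGG on the gene strand. RefSeq promoter windows of assembly GRCm38.p6, 250 bases before to 50 bases after a gene's start, were given for 6 of the 10 genes (H2-Aa, H2-Eb1, H2-DMa, H2-DMb1, Ifi30 and Ctss). They are shown as background, and whether the module bears on the levels described below was not tested. GNNAC followed after 24 to 32 bases by ATTGG was searched for on both strands, with the letters and the spacing set with these promoters in view. It was present on the gene strand of H2-Aa, H2-Eb1 and H2-DMb1, 81, 91 and 94 bases before their starts. Capitals mark GNNAC and ATTGG, and each line reads 5′ to 3′ along the gene:
H2-Aa: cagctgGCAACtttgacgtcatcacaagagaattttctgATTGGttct
H2-Eb1: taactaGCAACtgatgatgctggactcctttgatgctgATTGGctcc
H2-DMb1: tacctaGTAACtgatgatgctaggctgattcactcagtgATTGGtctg
H2-Ob: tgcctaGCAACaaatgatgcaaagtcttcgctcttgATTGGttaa
These stretches lie at chr17:34287863-34287910 on the minus strand (H2-Aa) and at chr17:34305770-34305816 (H2-Eb1), chr17:34153091-34153138 (H2-DMb1) and chr17:34238812-34238856 (H2-Ob) on the plus strand, all upstream of the gene's start in the MHC region of chromosome 17. H2-Ob encodes the beta chain of DO, the inhibitor of DM, and is not among the 10 genes. Of 31 matched genes of the wider class II pathway, 25 had a window that was searched. H2-Oa, H2-Ob and H2-Eb2 held the module on the gene strand. Of all 32851 windows given, 2.77% held it on the gene strand and 5.27% on either strand. The letters were not found in the windows of H2-DMa, Ifi30 and Ctss. GAAA followed after 2 bases by GAAA, the core of interferon-stimulated response elements, was searched for likewise and was found in Ctss alone of the 6, with both repeats in capitals:
Ctss: ttaaatGAAAccGAAAtgaa
That stretch is at chr3:95526759-95526778 on the plus strand, 21 bases before the start, and 3.44% of all windows hold the letters on either strand. A match is a description of the letters and not evidence of binding.

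Libraries held 6710403 to 13977361 gene reads. The 14 LSEC marker genes were all read in every library and summed to 23770 to 39670 CPM for aged and 27910 to 43090 CPM for young libraries, where CPM is reads per 1000000 gene reads, scaled between libraries by TMM (trimmed mean of M values). Aged 1.3 had the lowest LSEC sum and the highest sums of pan-leukocyte, B and plasma cell, T and NK cell, and Kupffer cell and macrophage markers. Reads on targets of the olfactory, the vomeronasal and the taste receptor families, called receptor reads below, took 0.145% (aged 2.3) to 3.15% (aged 1.1) of gene reads. Each target is a single short amplicon, so a level is compared between libraries for the same gene and not between genes.

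Cd74 encodes the invariant chain. In experiment 1 it stood at 103, 116 and 977 CPM in the aged libraries, against 43.3, 63.4 and 53.6 CPM in the young libraries. Each aged library of experiment 1 lay above each young one, and aged 1.3 lay far above the rest. In experiment 2 it stood at 1095, 1516, 199.7 and 28.4 CPM in aged 2.1 to 2.4, against 579, 229, 101.5 and 63.8 CPM in young 2.1 to 2.4. The ages overlapped there: aged 2.4 was the lowest of all 14 libraries and aged 2.2 the highest, and young 2.1 was above 2 of the 4 aged libraries. Over both experiments the mean of Cd74 was 576.5 ± 604.3 CPM for aged and 162 ± 194.7 CPM for young libraries (SD, n = 7 each), a log2 fold change of 2.12 (SE 0.81, edgeR adjusted p = 0.648). The SD exceeded the mean at both ages.

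The class II chains had wide ranges at both ages. H2-Aa, the alpha chain of I-A, had a lowest, median and highest value of 34.5, 52.4 and 622 CPM in aged libraries, against 19.4, 24.9 and 200.4 CPM in young libraries. H2-Ab1, its beta chain, had 3.02, 13.02 and 158 CPM in aged libraries, against 2.34, 5.24 and 57.3 CPM in young libraries. H2-Eb1 encodes the beta chain of I-E, whose alpha chain gene is not functional in C57BL/6 mice, and it had 2.92, 38.2 and 224 CPM in aged libraries, against 4.61, 12.9 and 88.8 CPM in young libraries. For all of these chain genes the highest aged library was aged 1.3 or aged 2.2, the highest young library was young 2.1, and the ages overlapped. The DM chains, which edit the peptide in the groove, were read less deeply. H2-DMa had 0.208, 1.83 and 19.3 CPM in aged libraries, against 0.436, 1.09 and 5.70 CPM in young libraries. H2-DMb1 had a median of 3.57 and a highest value of 19.6 CPM in aged libraries, against 0.784 and 4.65 CPM in young libraries. Aged 2.4 held 2 reads of H2-DMa and 0 reads of H2-DMb1, and at its depth 3 reads are 0.336 CPM. H2-DMb1 has a close paralog, H2-DMb2: their longest GENCODE coding transcripts were 87.3% identical over 1157 aligned columns, with an identical run of 221 bases, so reads of these 2 genes may have been exchanged.

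Of the genes that process antigen, Ctss (cathepsin S, the protease that removes the invariant chain) had 5.42, 17.9 and 74.9 CPM in aged libraries, against 2.78, 5.93 and 40.8 CPM in young libraries. Ifi30, which encodes the thiol reductase GILT that opens disulfide bonds of endocytosed proteins, had 29.8, 60.1 and 136 CPM in aged libraries, against 16.3, 30.8 and 61.7 CPM in young libraries. Its range was the narrowest of the 10, with an 8.34-fold difference between the highest and the lowest library. Cd86, the costimulatory ligand of CD28, had 0.833, 3.73 and 12.1 CPM in aged libraries, against 0.436, 1.06 and 3.98 CPM in young libraries. Ciita, which encodes the coactivator, had 2.22, 24.6 and 34.5 CPM in aged libraries, against 2.31, 12.2 and 24.6 CPM in young libraries. Aged 2.3 was its lowest library, with 28 reads, although Cd74 in that library was at 199.7 CPM. The ages overlapped for each of the 10 genes.

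**Figure D1:**
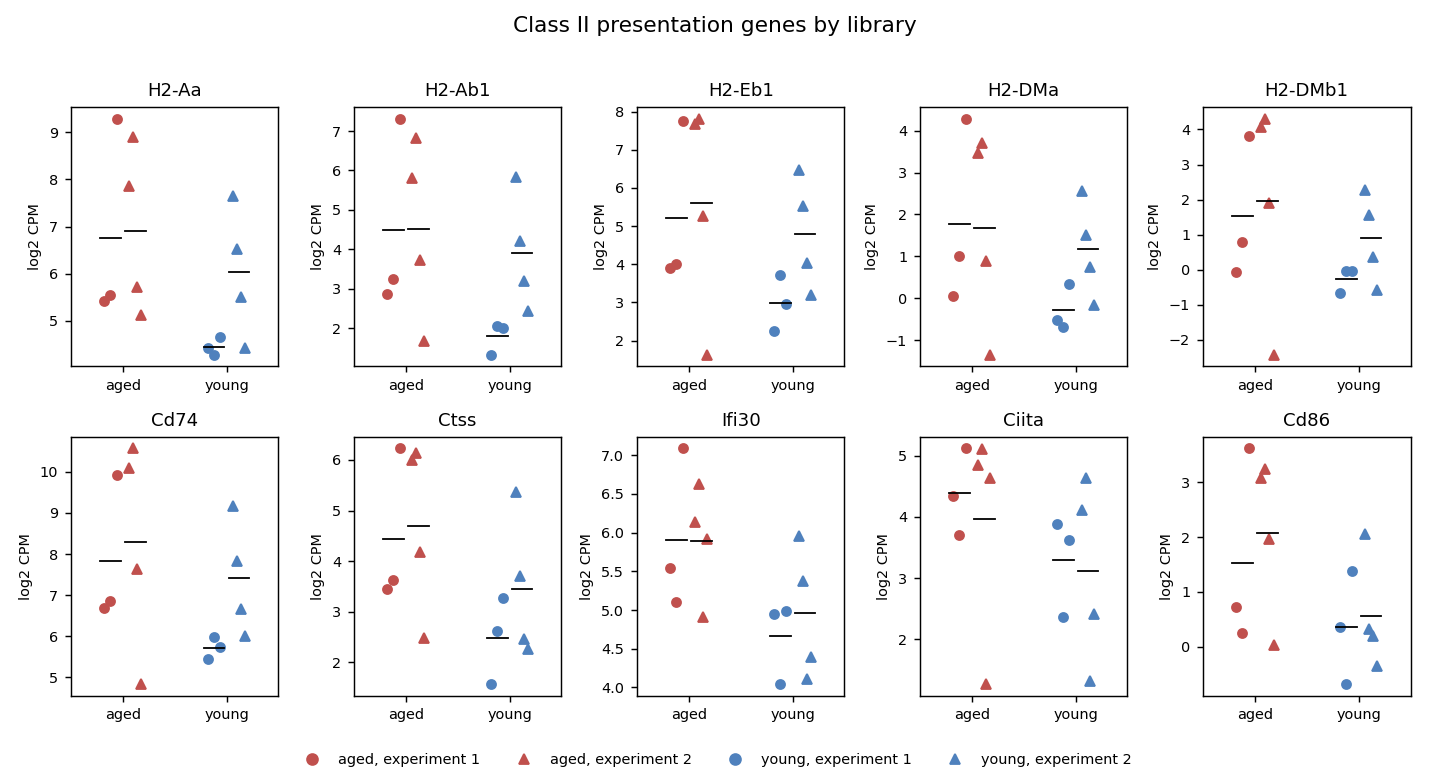
Level of the 10 genes in each library as log2 CPM (prior count 2), aged left of young, with circles for experiment 1, triangles for experiment 2 and a bar at the mean of each age in each experiment. Aged 1.3, the top circle of the aged libraries, is at 977 CPM for Cd74, and aged 2.4, the lowest triangle for Cd74 at 28.4 CPM, is among the upper libraries for Ciita.

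Aged and young libraries were compared over both experiments, with the experiment as a term. None of the 10 genes passed an adjusted p of 0.05 in edgeR's quasi-likelihood test, where 23 of 14168 targets did (0.162%). The log2 fold change was above 0 for 10 of 10 genes, as it was for 49.6% of all targets, with a median of 2.11 against −0.0023 over all targets. An unadjusted p under 0.05 was reached upward by 9 of the 10, all but Ciita, against 3.43% of all targets, with DESeq2 giving 9 and limma-voom 1 and neither calling any after adjustment. H2-DMb1 had the largest log2 fold change at 2.48 (SE 0.93, edgeR adjusted p = 0.643), followed by H2-Ab1 at 2.28 (SE 1.02), H2-Eb1 at 2.27 (SE 0.90), H2-DMa at 2.13 (SE 0.92) and H2-Aa at 2.10 (SE 0.84). Cd86 and Ctss were at 1.78 (SE 0.69) and 1.77 (SE 0.70). Ifi30, at 1.12 (SE 0.38, edgeR adjusted p = 0.567), had the smallest error of the 10, and Ciita was at 0.96 (SE 0.57, edgeR adjusted p = 0.921). Above the young mean of their own experiment on the log2 scale were 6 of 7 aged libraries for H2-Eb1, H2-DMb1, Cd74, Ctss, Ifi30 and Ciita, and 5 of 7 for H2-Aa, H2-Ab1, H2-DMa and Cd86. In these bulk libraries a larger number of cells of a type and more RNA per cell cannot be told apart.

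Aged 1.3 moved all of these values. Without it the median of the 10 was 1.14, and 1 of the 10, Ifi30, kept an unadjusted p under 0.05 at a log2 fold change of 0.78 (SE 0.33, edgeR adjusted p = 0.927). Cd74 was at 1.36 (SE 0.71) and H2-Ab1 at 1.13 (SE 0.70) without it. The number at an unadjusted p under 0.05 was 3 without aged 2.2, 4 without young 1.1 and 5 without aged 2.1 or young 1.3. limma-voom on all 14 libraries gave a median of 1.14.

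Within experiment 1 the median log2 fold change was 2.95, with H2-Ab1 at 4.10 (SE 1.46) and H2-Aa at 3.44 (SE 1.23), and 7 of 10 genes had an unadjusted p under 0.05 upward, against 2.57% of all targets. None was called, and 0% of all targets were called in edgeR. DESeq2 gave 8 of the 10 at an unadjusted p under 0.05 upward and limma-voom 0. They called 86 and 1 of 14168 targets in experiment 1, and none of the 10. Without aged 1.3 this median was 0.89, Cd86 was at −0.09 (SE 1.03) and 0 of 10 had an unadjusted p under 0.05. That number was 3, 2 and 4 without young 1.1, young 1.2 and young 1.3. Within experiment 2 the median was 1.27, from 0.87 for Ciita to 2.12 (SE 1.23) for H2-DMb1, with 0 of 10 at an unadjusted p under 0.05, against 1.69% of all targets upward. This median was 0.76 without aged 2.2, where H2-Ab1 was at 0.088, and 2.07 without young 2.1. Without young 2.1, and also without aged 2.4, 2 of 10 had an unadjusted p under 0.05. With all libraries of experiment 2, edgeR called 0.00706% of all targets and none of the 10. DESeq2 and limma-voom called 53 and 3 of 14168 targets in experiment 2, and none of the 10. Experiment 2 minus experiment 1 gave a median of −1.24, from −3.07 to −0.16. That median was 0.33 without aged 1.3, with 9 of the 10 above 0, and −0.56 without young 2.1. In that test of the difference edgeR called 0% of all targets, 0 of the 10 reached an unadjusted p under 0.05 (2.18% of all targets did), and DESeq2 and limma-voom called none of the 10.

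Ptprc itself spanned the libraries widely. It stood at 11.4, 6.39 and 79.7 CPM in aged 1.1 to 1.3 and at 46.1, 77.4, 18.2 and 3.33 CPM in aged 2.1 to 2.4, against 5.56, 4.18 and 4.75 CPM in young 1.1 to 1.3 and 28.7, 34.4, 5.85 and 1.43 CPM in young 2.1 to 2.4. The 5 libraries highest for Ptprc (aged 1.3, 2.1 and 2.2 and young 2.1 and 2.2) were also the 5 highest for Cd74. The age comparison of Ptprc gave a log2 fold change of 1.76 (SE 0.82, edgeR adjusted p = 0.738), and 0.98 without aged 1.3.

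Over the 14 libraries the log2 CPM of H2-Aa followed that of Ptprc at r = 0.927 (Pearson) and rho = 0.925 (Spearman) (permutation p = 1e-05 for each, the smallest the permutations give, and adjusted p = 0.00373 and 0.00457 over 14167 targets). Cd74 had an r of 0.923 and a rho of 0.916 (permutation p = 2e-05 and 1e-05, adjusted p = 0.00506 and 0.00457). The lowest r among the 8 genes that passed was that of Cd86, 0.855, with a rho of 0.846 (permutation p = 0.00014 and 0.00025, adjusted p = 0.0142 and 0.0272). Ifi30 and Ciita did not pass: Ifi30 had an r of 0.775 and a rho of 0.719 (permutation p = 0.0012 and 0.0053, adjusted p = 0.0685 and 0.231), and Ciita an r of 0.546 and a rho of 0.64 (permutation p = 0.0449 and 0.0167, adjusted p = 0.639 and 0.455). Of all targets 1.54% passed on Pearson's r. The permutations moved the 14 libraries freely across ages and experiments, so differences between those groups enter r and its p. Without the 2 libraries farthest from the median of Ptprc, aged 2.2 and aged 1.3, r for the same 8 genes was 0.746 (Cd86) to 0.881 (H2-Aa), and none passed (adjusted p = 0.0623 to 0.363 by permutation), where 0.0918% of all targets did, so the calls were not kept with 12 libraries. Within experiment 2, r for the 8 was 0.84 to 0.922. Within experiment 1 it was 0.89 to 0.979, but there aged 1.3 lies apart from the other 5 libraries and sets the value. Ifi30 and Ciita had r of 0.957 and 0.833 within experiment 1, and a rho of 0.943 each, against 0.314 to 0.886 for the 8. Their r within experiment 2 was 0.678 and 0.509, and their rho 0.762 and 0.714, against 0.905 to 0.976 for the 8. Within each experiment 0% of all targets passed, so the adjusted p is not informative there.

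**Figure D2:**
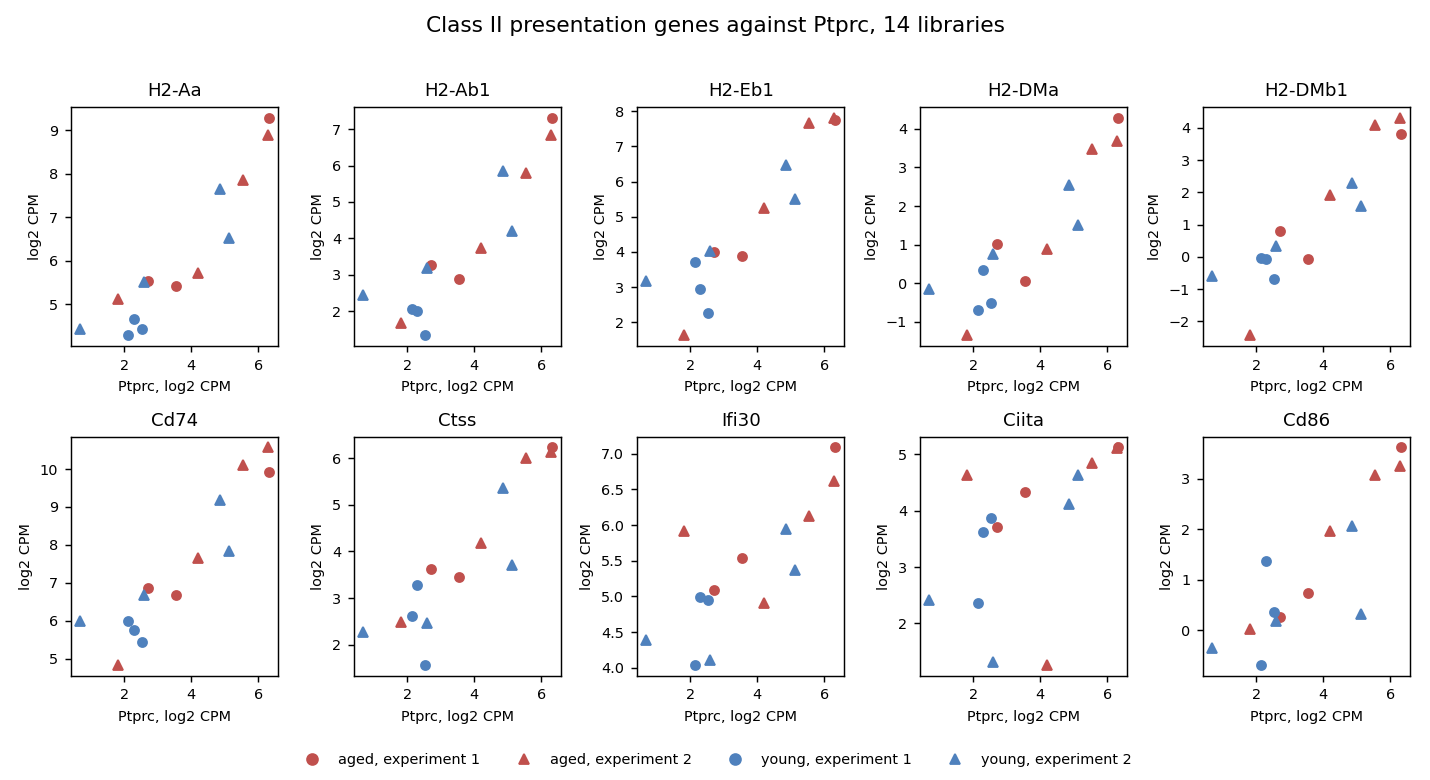
Level of each of the 10 genes (log2 CPM, vertical) against Ptprc (log2 CPM, horizontal) in the 14 libraries, coloured by age, with circles for experiment 1 and triangles for experiment 2. H2-Aa and Cd74 follow Ptprc with r of 0.927 and 0.923, while Ciita scatters with an r of 0.546.

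The slope on Ptprc asks how much a gene differs per doubling of Ptprc among libraries of the same age and experiment. With age and experiment in the model, 8 of the 10 genes rose with Ptprc, against 1.33% of 14167 targets called upward. H2-DMb1 had a slope of 1.06 (SE 0.20, edgeR adjusted p = 0.0153), H2-Eb1 of 1.03 (SE 0.14, edgeR adjusted p = 0.00183), H2-Ab1 of 1.004 (SE 0.14, edgeR adjusted p = 0.00238) and H2-DMa of 0.97 (SE 0.16, edgeR adjusted p = 0.00667). These values correspond to about a doubling per doubling of Ptprc. Cd74 (0.91, SE 0.13) and H2-Aa (0.85, SE 0.10) passed as well, as did Ctss (0.75, SE 0.12) and Cd86 (0.72, SE 0.15). Ifi30 had a slope of 0.31 (SE 0.08, edgeR adjusted p = 0.117) and Ciita of 0.32 (SE 0.16, edgeR adjusted p = 0.663), and neither passed. Without aged 2.4 Ifi30 passed (0.45, SE 0.08, edgeR adjusted p = 0.0114) and Cd86 did not, and Ciita was at 0.58 without passing. Without aged 1.3 the count was 5, with H2-DMa, H2-DMb1 and Cd86 not passing (edgeR adjusted p = 0.0879, 0.094 and 0.167).

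With Ptprc in the age model the log2 fold changes of the 8 genes lay between −0.046 and 0.33, each within 1 SE of 0, and those of Ifi30 and Ciita moved least. H2-Ab1, H2-Eb1 and H2-DMa had values of −0.0097 (SE 0.54), −0.041 (SE 0.49) and −0.046 (SE 0.55), below 0 and within the error. Cd74 was at 0.07 (SE 0.45) and the other chains at 0.20 (H2-DMb1, SE 0.68) and 0.29 (H2-Aa, SE 0.37). Ifi30 was at 0.66 (SE 0.29), under 0.05 before but not after edgeR's adjustment, and Ciita at 0.63 (SE 0.53). The median of the 10 was 0.24, and 0 of the 10 were called, against 0.0212% of all targets. With the mean of the pan-leukocyte markers in place of Ptprc the median was 0.26, with H2-Eb1 at −0.0016 and H2-DMa at −0.063, again 0 called against 0.0423%. These fits give the age difference at equal Ptprc or equal leukocyte marker level.

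**Figure D3:**
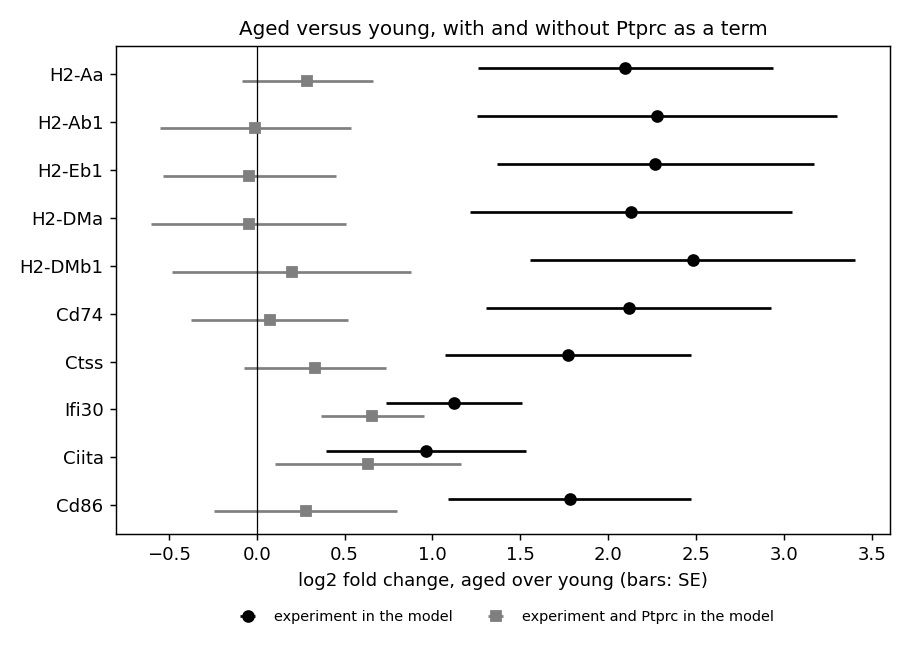
Log2 fold change, aged over young, of the 10 genes with experiment in the model (black circles) and with experiment and Ptprc in the model (grey squares), with bars of 1 SE. With Ptprc in the model H2-Ab1, H2-Eb1 and H2-DMa sit at −0.0097, −0.041 and −0.046, and Ifi30 and Ciita at 0.66 and 0.63.

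Markers of several leukocyte types moved with Ptprc alongside these genes. The slope on Ptprc was called for 7 of 9 tested pan-leukocyte markers other than Ptprc, 5 of 7 B and plasma cell markers, 6 of 8 T and NK cell markers, 1 of 8 Kupffer cell and macrophage markers, 1 of 7 dendritic cell markers and 1 of 4 monocyte and neutrophil markers, all upward. None of the 14 LSEC markers was called. Of all targets 1.33% were called upward on that slope. The summed B and plasma cell markers (9 targets) ran from 8.64 to 381.9 CPM in aged libraries, with a median of 22.9, against 9.05 to 80.1 CPM with a median of 17.3 in young libraries. The summed markers of Kupffer cells and macrophages (12 targets) ran from 37.5 to 295.3 CPM with a median of 121 in aged libraries, against 37.2 to 119 CPM with a median of 52.0 in young libraries. T and NK cell markers (11 targets) ran from 17.3 to 602 CPM in aged libraries and 14.04 to 141 CPM in young libraries, and monocyte and neutrophil markers (9 targets) from 11.1 to 1254 CPM for aged and 16.0 to 203 CPM for young libraries. The 10 dendritic cell targets summed to 347 to 628.5 CPM for aged and 326 to 518 CPM for young libraries. Most of that sum came from Clec9a and Zbtb46, which had at least 63.0 and 148.5 CPM in every library, also in those lowest for Ptprc. The plasmacytoid marker Siglech was at 0 reads in 6 libraries and at 17.9 CPM in aged 1.3. When the mean of the B and plasma cell markers replaced Ptprc as the slope, 8 of the 10 genes were called, against 1.41% of all targets. When that of the Kupffer cell and macrophage markers did, 0 of the 10 were called, against 0.0141% of all targets, so calls say little there. The median slope of the 10 was 1.38 on those markers and 0.91 on the B and plasma cell markers. On each, 9 of the 10 had an unadjusted p under 0.05 upward in edgeR. Which cells these reads came from was not tested.

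The 10 genes also differed in how closely they followed each other. After centring within experiments, Pearson's r over the 14 libraries was 0.845 to 0.991 for the 28 pairs among the 8 genes other than Ciita and Ifi30, with a median of 0.943. It was 0.384 to 0.866 for the 16 pairs of Ciita or Ifi30 with those 8, with a median of 0.629, and 0.856 between Ciita and Ifi30. These are descriptions over libraries that share their depth and their leukocyte marker content. Subtracting log2 Ptprc narrowed the SD over libraries from 1.87 to 0.723 for Cd74, from 1.68 to 0.669 for H2-Aa and from 1.41 to 0.926 for Cd86. It widened it for Ciita, from 1.32 to 1.53, and for Ifi30, from 0.907 to 1.21. Subtracting log2 Cd74 in its place left an SD of 0.316 for H2-Eb1, 0.416 for H2-Ab1 and 0.432 for H2-DMb1. It left 0.457 for H2-DMa, 0.604 for H2-Aa and 0.615 for Ctss. For Cd86 it left 0.955, more than with Ptprc, and it widened the SD of Ifi30 to 1.39 and of Ciita to 1.755. The ratio of Ciita to Ptprc ran from 0.122 in aged 2.3 to 7.38 in aged 2.4, 60.3-fold, whereas the ratio of H2-Aa to Ptprc ran from 2.67 in young 2.2 to 15.0 in young 2.4, 5.61-fold.

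**Figure D4:**
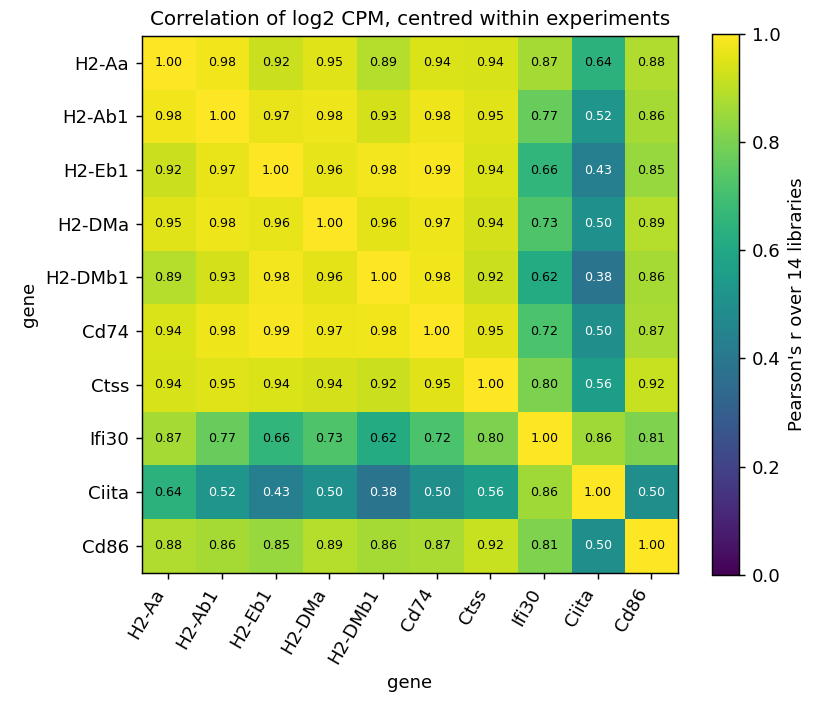
Pearson's r between the 10 genes over the 14 libraries, of log2 CPM centred within experiments. The rows and columns of Ifi30 and Ciita stand out from the block of the other 8 genes, whose pairs lie between 0.845 and 0.991.

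The targets most like each gene were found by the same r. H2-Aa and H2-Ab1 were nearest to Laptm5, a lysosomal membrane protein of blood cells (0.982 and 0.986), and H2-Eb1 and Cd74 to each other (0.991). H2-DMa was nearest to Otulinl (0.985) and the B cell receptor kinase gene Syk (0.983), and H2-DMb1 to Cyp4f18 (0.983). Ctss was nearest to Treml4 (0.975), and among the 3 nearest to Cd86 were genes of phagocytes, the NADPH oxidase subunit Cybb (0.952) and Adgre1 (0.947), which encodes the macrophage marker F4/80. Ciita was nearest to Ear6 (0.966), Cd72 (0.963) and B3gnt5 (0.962), and Ifi30 to the receptor tyrosine kinase gene Axl (0.964). None of the 3 targets nearest to Ciita or to Ifi30 was among the 10 genes.

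Ciita and Ifi30 were also set against the share of receptor reads. Aged 2.4, with 2.78% receptor reads, had the lowest Cd74 of all, yet Ciita was at 24.6 CPM and Ifi30 at 60.1 CPM there. Aged 2.3, with 0.145%, had Ciita at 2.22 CPM, and young 2.3, with 0.248%, had it at 2.31 CPM. Aged 2.1 had a low share too, 0.238%, but Ciita at 28.7 CPM and Ifi30 at 70.01 CPM, and aged 2.2, with 0.627%, had Ciita at 34.3 CPM. With age, experiment, Ptprc and the log2 receptor share in 1 model, a fit chosen after seeing the data, Ciita rose by 0.57 per doubling of the share (SE 0.14, edgeR adjusted p = 0.00421) and Ifi30 by 0.29 (SE 0.09, edgeR adjusted p = 0.0132). H2-Eb1 and H2-DMb1 fell by 0.40 (SE 0.15, edgeR adjusted p = 0.0353) and by 0.53 (SE 0.18, edgeR adjusted p = 0.0223), and the other 6 did not pass. Of all targets 51% were called on the receptor share in that model, so 4 of 10 is no more than the background. In the same model the slope on Ptprc was called upward for 9 of the 10, against 2.51% of all targets. Ifi30 then had a slope of 0.32 (SE 0.06, edgeR adjusted p = 0.0075), and Ciita one of 0.36 (SE 0.11, edgeR adjusted p = 0.0933). Ifi30 passed too when young 2.2 and aged 2.4 were left out (0.49, SE 0.08, edgeR adjusted p = 0.00963). The age difference in the model with both terms had a median of 0.10 and none of the 10 was called, against 0.275% of all targets. There 5 of the 10 lay below 0, H2-Eb1 at −0.21 (SE 0.36), H2-DMb1 at −0.20 (SE 0.44), H2-DMa at −0.19 (SE 0.50), H2-Ab1 at −0.049 (SE 0.47) and Cd74 at −0.0089 (SE 0.35), and Ifi30 was at 0.62 (SE 0.22, edgeR adjusted p = 0.375).

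**Figure D5:**
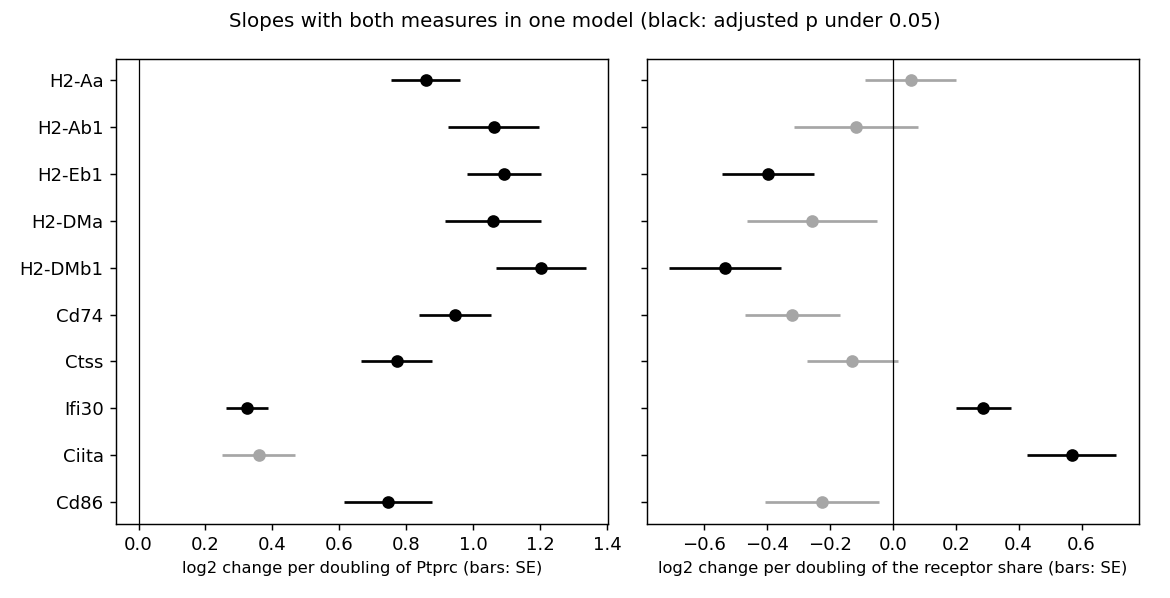
Slope of each gene per doubling of Ptprc (left) and per doubling of the share of receptor reads (right), from 1 model with both measures, age and experiment. Bars are 1 SE, black marks an edgeR adjusted p under 0.05 and grey the others; Ciita, at 0.57, is highest on the right and does not pass on the left.

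Of 35 listed genes of the wider class II pathway, 31 were matched and 28 tested. None was called aged versus young, against 0.162% of all targets, and their median log2 fold change was 0.02. An unadjusted p under 0.05 in edgeR was reached upward by 6, against 3.43% of all targets. Downward it was reached by 1, against 473 of 14168 targets. The upper end held genes of the same kind as the 10: H2-DMb2 stood at 16.1 ± 19 CPM for aged and 1.74 ± 2.68 CPM for young libraries (SD, n = 7 each; log2 fold change 3.61, SE 1.30, edgeR adjusted p = 0.622). H2-Ob and H2-Oa, the DO chains, were at log2 2.40 (SE 0.95) and 1.80 (SE 0.77), and Spi1, which encodes the myeloid and B cell transcription factor PU.1, at 1.82 (SE 0.74). Without aged 1.3 these 4 were at 2.32 (H2-DMb2), 1.23 (H2-Ob), 1.17 (H2-Oa) and 0.98 (Spi1). The slope on Ptprc was called for 3 of the 28, against 1.33% of all targets called upward. These were H2-DMb2 at 1.49 (SE 0.22), H2-Ob at 0.998 (SE 0.15) and Spi1 at 0.79 (SE 0.12).

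Lysosomal proteases that most cells use lay close at the 2 ages. The mean of Ctsl was 2715 ± 646.7 CPM for aged and 2593 ± 424.4 CPM for young libraries, that of Ctsd 2393 ± 671 CPM for aged and 2347 ± 393.4 CPM for young, and that of Ctsb 1397 ± 396.5 CPM for aged and 1272 ± 208.1 CPM for young (SD, n = 7 each). None of these 3 passed. Ctsz, a carboxypeptidase of the same compartment, lay at 43.7 to 58.9 CPM in aged and 27.3 to 50.1 CPM in young libraries and exceeded its experiment's young mean in 7 of 7 aged libraries. Its log2 fold change was 0.45 (SE 0.13, edgeR adjusted p = 0.46), and DESeq2 called it (adjusted p = 0.0301). Its slope on Ptprc was −0.01 (SE 0.05). Irf1, an interferon-induced transcription factor that acts on the Ciita gene, stood at 456 ± 119.6 CPM for aged and 662 ± 282.9 CPM for young libraries (SD, n = 7 each; log2 fold change −0.54, SE 0.22, edgeR adjusted p = 0.673), with 0 of 7 aged libraries above the young mean.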

How the data were processed

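Sorted mouse LSECs were profiled with the Ion AmpliSeq mouse transcriptome panel after TRIzol LS extraction, per the labels' protocols. The deposited values are raw counts of reads on RefSeq transcripts, with a file for each library. HTSeq 0.6.0 and DESeq2 1.18.1 are named in the submitters' processing notes, while for the aligner, build and strand setting the sources used here give nothing. The 5 bookkeeping entries (1.24 to 3.04% of reads) were left out. Names came from RefSeq (GRCm38.p6) for 18128 targets by version and 4324 without it, and from GENCODE M21 for 110, with 1368 unmatched. Counts were tested in R 4.3.3 with edgeR 4.0.16 (filterByExpr, TMM, quasi-likelihood F test, experiment as a term) and Benjamini-Hochberg adjustment over all tested targets at 0.05. Alternatives used DESeq2 1.42.0 and limma 3.58.1. Correlations used 100000 permutations, exact within an experiment. Amplicon reads carry no molecular identifiers, so floors of 3 reads cover counting error only, and depth ranged from 6710403 to 13977361 gene reads. The genes and lists were chosen with earlier results of these data known. Named beside the 10 genes and Ptprc are up to 6 pathway genes of smallest p and the 3 of highest level, up to 3 markers of smallest p per list, and the 3 nearest targets per gene. Siglech and Zbtb46 were named after their values were seen. Some items these rules pick are not reported here. The steps were tested on simulated counts.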

Additional observations from a re-analysis of the deposited data

Results flagged for a closer look

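In 22 groups of 7 libraries (each of the 10 genes and Ptprc at each age, on the log2 CPM scale), 1 held a library far from the others. Ciita in aged 2.3, at 2.22 CPM, lay below the other 6 aged libraries, whose lowest was 12.9 CPM, by 0.634 of the group's range. About 1 in 20 such groups is expected to show this by chance. In the young libraries Ciita was at 2.31 CPM in young 2.3.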

How the results depend on the processing

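None of the 10 genes was called aged versus young under any alternative run, and each kept a log2 fold change above 0 over both experiments except with Ptprc as a term (H2-Ab1 −0.0097, H2-Eb1 −0.041, H2-DMa −0.046), with leukocyte markers as a term (H2-Eb1 −0.0016, H2-DMa −0.063) and with both Ptprc and receptor reads as terms (H2-Ab1 −0.049, H2-Eb1 −0.21, H2-DMa −0.19, H2-DMb1 −0.20, Cd74 −0.0089). In the first 2 of these fits Ccr7 (−1.17 and −0.82), Il7r (−0.40 and −0.32) and Cd3g (−0.62 and −0.35) turned, as did Ptpn6 (−0.045) with Ptprc. Ptprc itself was at −0.00041 with Ptprc as a term, which sets it near 0 by construction. Ctsd turned to −0.0041 with no filter, −0.0048 with limma-voom, −0.00198 with the replicate block, −0.025 with receptor reads and −0.016 with leukocyte markers. The cause was not tested.

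Over all targets the 23 calls became 46 without TMM, 146 with DESeq2, 59 with receptor reads as a term, 36 without young 2.2 and aged 2.4, 4 with aged 1.1 and 1.2 summed, 12 with no experiment term, 3 with Ptprc and 6 with leukocyte markers as a term. Experiment 1 (0 calls) gave 1 without TMM, 86 with DESeq2, 1 with limma-voom, 2 with receptor reads and 2 without young 2.2 and aged 2.4. Experiment 2 (1 call) gave 3 with median-of-ratios factors, 5 without TMM, 53 with DESeq2, 3 with limma-voom, 21 with receptor reads and 3 without young 2.2 and aged 2.4. The slope on Ptprc (206 calls) gave 434 with no filter, 439 with DESeq2, 454 with receptor reads and 2 on Kupffer cell markers, where 0 of the 10 genes passed.

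Leaving out 1 library gave 4 (without aged 1.1 or 1.2) to 29 calls for age, 0 in experiment 1, 1 to 3 in experiment 2, 0 for the difference, and 156 (without young 2.1) to 264 for the slope. Of the 10 genes 5 to 8 kept the slope call. Cd86 missed it in 6 of these runs, H2-DMb1 in 2 and H2-DMa in 1, and Cd86 also with aged 1.1 and 1.2 summed. In experiment 1 Cd86 ran from −0.088 (without aged 1.3) to 2.63. Over both experiments Ctsd ran from −0.038 (without young 2.2) to 0.109, also below 0 without aged 2.1 or 2.3, and Ctsl from −0.029 (without young 2.2) to 0.176. The correlation with Ptprc passed for 8 genes, but for 0 without the 2 farthest libraries, where 0.0918% of all targets passed. Within experiment 1 or 2 it passed for 0 of all targets, so those calls are not informative.

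Whether same-numbered libraries were paired is not stated. Their deviations from the group means correlated at −0.385 to 0.776, which does not settle it. With the replicate numbers as a block there were 5 calls over both experiments and 0 in experiment 2, with 0 of the 10 genes. The median log2 fold change of the 10 was then 1.38 over both experiments. An unadjusted p under 0.05 in edgeR was reached by 8 of the 10 over both experiments, 7 in experiment 1 and 3 in experiment 2. Aged 1.1 and 1.2 were closer (chi-square per degree of freedom 6.07) than other pairs (18.2 to 117.8), but differed beyond sampling noise. Depth limits H2-DMa, H2-DMb1 and Cd86, which had under 25 reads in several libraries.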

Other observations

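Some markers of Kupffer cells, neutrophils and LSECs are described here, and edgeR called none of them aged versus young. The Kupffer cell genes Folr2, Cd163 and Vsig4 had log2 fold changes of 1.87 (SE 0.50), 2.34 (SE 0.64) and 1.85 (SE 0.53) aged versus young, each exceeding its experiment's young mean in 7 of 7 aged libraries, and slopes on Ptprc of 0.06 (SE 0.17), 0.15 (SE 0.22) and 0.25 (SE 0.17). None passed in edgeR (adjusted p = 0.37, 0.408 and 0.46), while DESeq2 called all 3 (adjusted p = 0.0229, 0.0245 and 0.0414) and 146 of 14168 targets in all. They were picked as the 3 of smallest p among 8 tested markers of that list. All 8 had a log2 fold change above 0, the lowest being C1qb at 0.31 (SE 0.50), with 3 of 7 aged libraries above the young mean. The neutrophil genes S100a8 and S100a9 were highest in aged 2.3, at 395 and 792 CPM, where Ptprc was at 18.2 CPM and Cd74 at 199.7 CPM. Among LSEC markers, Mcam, which encodes the sorted antigen CD146, stood at 355 ± 109.6 CPM for aged and 519 ± 166.2 CPM for young libraries (SD, n = 7 each; log2 fold change −0.56, SE 0.18, edgeR adjusted p = 0.518), with 0 of 7 aged libraries above the young mean. Lyve1, a hyaluronan receptor, had a log2 fold change of −0.68 (SE 0.27, edgeR adjusted p = 0.671), and the inhibitory Fc receptor gene Fcgr2b one of 0.58 (SE 0.21). Mcam, Lyve1 and Fcgr2b were picked as the 3 of smallest p among 14 tested LSEC markers. The median log2 fold change of those 14 was −0.14, with 3 of them above 0.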
